A study of Mus musculus with 24 samples.

Results

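The comparison asked how the liver response to diethylhexylphthalate (DEHP) differed between the first hours and the following days. For each gene, the DEHP minus corn oil difference at 2 and 8 h was averaged into an early effect, and the difference at 24 and 72 h into a late effect. The late minus early effect is the second mean less the first, so that it is above 0 where DEHP livers gained signal relative to corn oil livers after the first day. All 24 arrays of the series entered it, and 18194 genes were measured, each through its probe set with the highest mean signal. The sampling times define the comparison.

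Liver total RNA came from male B6C3F1 mice, a hybrid laboratory strain, that were 7 to 10 weeks old on arrival and were given at least 5 days to acclimatise on a standard diet. DEHP is a plasticiser that the study's title calls a rodent non-genotoxic carcinogen. DEHP mice received 1150 mg/kg/day by oral gavage at 10 ml/kg, repeated every 24 h over 3 days, and control mice received the same volume of corn oil. The 4 DEHP and 4 corn oil groups, killed at 2, 8, 24 or 72 h, held 3 arrays each. The labels give neither the number of doses before the 24 and 72 h samples, nor the hour of the day, nor whether each array is a separate animal (the design text names 6 mice), so p-values measure the spread between these arrays only. In whole liver RNA, fewer cells of a type and less RNA per cell cannot be told apart.

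As background, DEHP is hydrolysed to a monoester that activates the nuclear receptor PPARα. With its partner RXR, PPARα binds spaced direct repeats near genes for fatty acid uptake, binding, activation and oxidation, and switches them on in hepatocytes. Peroxisome proliferators are known to enlarge the rodent liver through this receptor, with a wave of hepatocyte DNA synthesis, and phthalates at high dose can also engage CAR, the receptor that drives Cyp2b10. Genes switched on by ligand in hours and genes that change over days are both known among PPARα responses.

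Of 6 measured hepatocyte markers none was called, and their late minus early values ran from -0.38 ± 0.11 (log2 ± SE) for the nuclear receptor Hnf4a (adjusted p = 0.08) to 0.04 for the apolipoprotein Apoa1, with 4 below 0 and a median of -0.04. Another probe set of Hnf4a read -0.98. The mean signal of the 6 was lower in DEHP than in corn oil livers without overlap at 8 h (13.65 to 13.68 against 13.73 to 13.74), 24 h (13.65 to 13.71 against 13.75 to 13.84) and 72 h (13.62 to 13.66 against 13.77 to 13.8), and the groups overlapped at 2 h. The part of this shift in the results was not tested. Median signals ran from 6.46 to 6.55 over the arrays, and r within a group from 0.989 to 0.996 across probe sets, which are not independent. RNA quality was read from Actb, as its 3' minus 5' signal, which was 1.46 on corn oil 8 h replicate 2 and 0.50 to 0.82 on all other arrays. The same array had the highest 18S ribosomal RNA signal, 12.35. Replicates 1 and 3 of corn oil 24 h followed at 11.08 and 10.71, and the remaining arrays read 6.84 to 9.12. Corn oil 72 h replicate 1 stood apart in acute phase genes, as its values below show, and was highest of its group in the mean of immediate-early genes (8.69 against 7.42 and 7.6) and of neutrophil markers (7.37 against 6.83 and 6.81). At 8 h, replicate 3 of corn oil and replicate 2 of DEHP carry the same number, 14, in their titles and were kept as separate samples. Put through the same contrast, the Actb 3' minus 5' difference had a value of 0.21, and its part in the results was not tested beyond a fit with it as a covariate. The 18S signal had a value of 0.26 in that contrast, and its part was not tested.

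The late and early effects differed in 316 of 18194 genes (1.74%) at an adjusted p under 0.05, 136 higher late (0.747%) and 180 lower late (0.989%). At least a 2-fold difference was reached by 10 genes higher late and 25 lower late. Over all genes the median late minus early value was 0.008 and the median SE 0.11. The early effect alone called 696 genes (3.83%) and the late effect alone 750 (4.12%). Of 273 genes higher early and 298 higher late in those fits, 46 were in both lists, which is 16.8% of the early and 15.4% of the late list. Among genes lower with DEHP, 59 were in both, 13.9% of 423 early and 13.1% of 452 late.

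**Figure D1:**
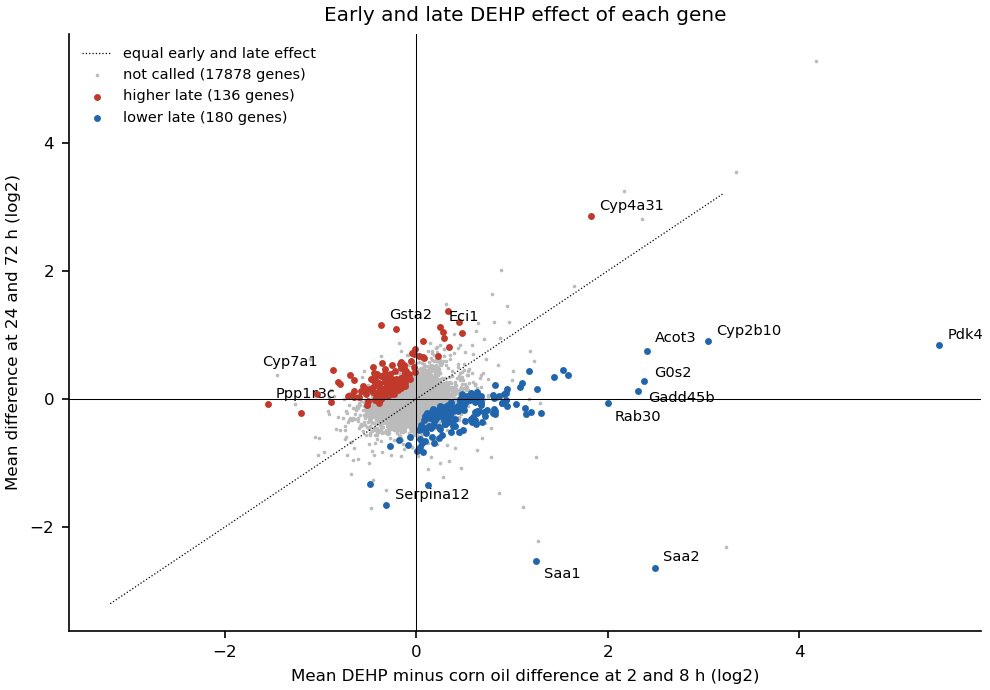
Each point is 1 of 18194 genes, with the mean DEHP minus corn oil difference at 2 and 8 h on the horizontal axis and at 24 and 72 h on the vertical axis (log2). The dotted line marks equal effects; blue genes lie below it (180 lower late, with Pdk4 far to the right at 5.47 early and 0.84 late) and red genes above it (136 higher late).

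The genes lower late were mostly early rises that faded. Of the 180, 96 were called higher early and not called late, with median effects of 0.64, 0.56, 0.02 and -0.18 at 2, 8, 24 and 72 h. A further 46 were called lower late and not early, and their median moved from 0.22 at 2 h to -0.70 at 72 h. The 136 genes higher late divided into 60 early falls that returned (medians -0.29, -0.54, 0.06 and 0.15) and 45 late rises (-0.14, -0.07, 0.32 and 0.61). Changes of sign with both effects called were few, 5 from higher to lower and 8 from lower to higher. The early and late calls use the same arrays as the difference itself, so these classes are a description with no test. Both late effects lay on the same side of both early effects in 130 of the 136 and 168 of the 180 genes, against 38.9% of all genes, a share that the choice of called genes raises.

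**Figure D2:**
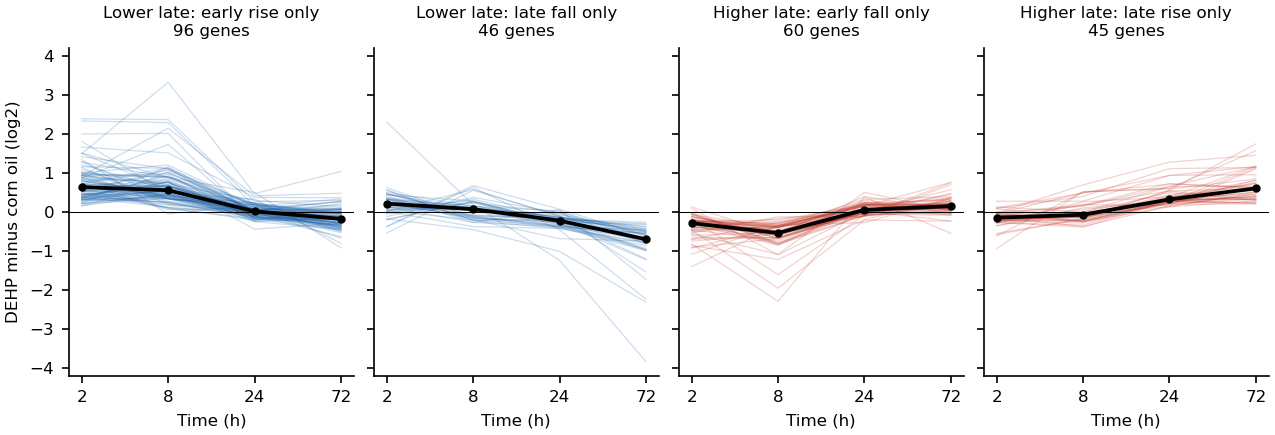
DEHP minus corn oil difference (log2) at 2, 8, 24 and 72 h, with a thin line for each gene and the black line for the median, in the 4 commonest classes of called genes. The median of the 96 early rises falls from 0.56 at 8 h to 0.02 at 24 h, while that of the 46 late falls is lowest at 72 h (-0.70).

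More genes changed within the DEHP arm than within the corn oil arm. Late minus early change within DEHP livers was called in 1637 genes (9%), and within corn oil livers in 178 (0.978%). Both share their arrays with the main comparison, so their values are set side by side. The 96 early rises had a median change of -0.75 in DEHP livers and -0.03 in corn oil livers, and the 45 late rises 0.50 and -0.09. Exceptions were present. Hspa1a, an inducible HSP70 chaperone, changed by -0.17 in DEHP livers and 1.3 in corn oil livers, and Clock, a core circadian activator, by -0.07 and 0.66, so that their late minus early value came from the control arm. Mcm10, Wee1, Dnajb4, Bag3, Hsph1, Slc45a3 and Cry2, described below, also changed more in corn oil than in DEHP livers.

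**Figure D3:**
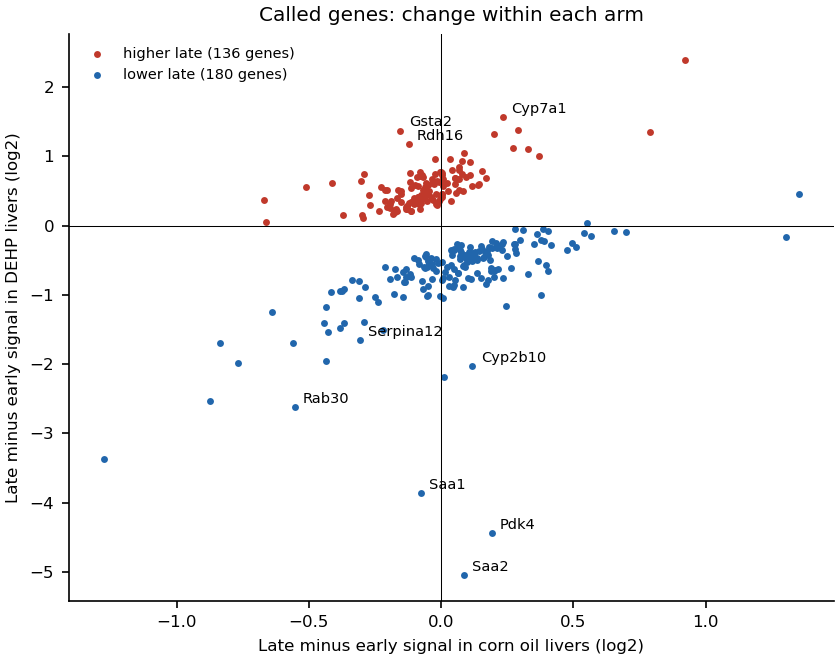
Late minus early change in corn oil livers (horizontal) and DEHP livers (vertical), log2, for the 316 called genes; the axes have different scales. Pdk4 changed by -4.44 in DEHP livers and 0.19 in corn oil livers.

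Pdk4 was the clearest early gene. It encodes the pyruvate dehydrogenase kinase that shuts pyruvate out of the citric acid cycle when fat is burned, and is a known PPARα target. DEHP livers read 12.15, 12.02 and 12 at 2 h, 11.87, 11.92 and 11.26 at 8 h, 7.72, 7.68 and 7.59 at 24 h, and 7.63, 6.61 and 7.37 at 72 h (log2 signal). Corn oil livers read 7.41, 7.13 and 6.75, then 6.47, 5.12 and 5.54, then 6.68, 7.03 and 6.29, then 6.44, 6.37 and 6.76. All 6 early DEHP arrays lay above every other array, the 24 h groups were still apart, and the 72 h groups overlapped. The early effect was 5.47 and the late effect 0.84, a difference of -4.63 ± 0.27 (24.7-fold, limma adjusted p = 6.2e-10). The related kinase Pdk2 went the other way by a small step, 0.44 ± 0.10.

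By count, lipid droplet genes held the most calls in the lower late direction of all 44 lists. The lists differ in size, and the smaller heat shock list held 6 of 19. Of 28 measured genes of lipid uptake and lipid droplets, 8 were called lower late and 2 higher late, with a list median of 0.01 against 0.008 for all genes. Over all genes 0.989% were called lower late and 0.747% higher late, the shares to set beside the counts of every list. Sign counts of lists are a description, to be read beside the all-gene median. The 8 were G0s2, Plin5, Plin4, Plin2, Fitm2, Hilpda, Creb3l3 and Pnpla2, and all 8 had an early effect above 0. G0s2, an inhibitor of the triglyceride lipase ATGL, read 12.79, 12.80 and 12.73 in DEHP livers at 2 h and 12.65, 12.40 and 12.19 at 8 h, against 9.86 to 10.74 in early corn oil livers. At 24 h the DEHP livers read 9.47, 10.01 and 10.58 and the corn oil livers 10.41, 9.16 and 9.68, and at 72 h 8.14, 8.71 and 8.43 against 7.16, 9.17 and 8.05. The groups were apart early and interleaved late, and the difference was -2.10 ± 0.36 (adjusted p = 0.0029).

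The droplet coat proteins did not move alike. Plin5, which ties droplets to mitochondria, had effects of 0.76, 1.12, 0.14 and -0.18 at the 4 times, a difference of -0.96 ± 0.21. Plin4 and Plin2 had differences of -0.85 ± 0.15 and -0.61 ± 0.12. Plin3, a coat protein of small droplets, was lowered early (-0.26 at 2 h and -0.81 at 8 h) and not late (0.12 and 0.20), a difference of 0.69 ± 0.12. Pnpla2, which encodes ATGL itself, fell by 0.39 ± 0.07 from early to late, from an early effect of 0.47. Fitm1 and Fitm2, proteins of droplet formation at the endoplasmic reticulum, had opposite values of 0.66 ± 0.14 and -0.56 ± 0.11. Cd36, a fatty acid transporter, read 1.17 ± 0.47 and was not called (adjusted p = 0.25), and Angptl4, a secreted lipase inhibitor, read -0.96 ± 0.26 (adjusted p = 0.055). The second probe set of Angptl4 read -0.07.

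Slc22a5 and 2 of 12 acyl-CoA thioesterase genes (Acot3 and Acot4) were called lower late, and the median of the 12 was 0.02. Slc22a5, the carnitine importer, read 10.87, 10.02 and 10.73 in DEHP livers at 2 h against 8.95, 9.07 and 8.6 in corn oil livers, and 11.61, 11.76 and 11.47 against 10.08, 10.28 and 9.94 at 8 h. Its effects at 24 and 72 h were 0.37 and 0.37, and the difference was -1.22 ± 0.19 (adjusted p = 0.0013). The groups were apart at both early times.

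Of 31 genes of peroxisomal oxidation, 5 were called lower late (Acot3, Acot4, Pxmp4, Pex11a and Crot) and 1 higher late (Ech1), with a median of 0.02. The shares over all genes were 0.989% and 0.747%. In the early effect alone 16 of the 31 were called higher and 2 lower, and in the late effect 10 higher and none lower. Of all 18194 genes, 273 were called higher early and 298 late. Acot3 and Acot4 encode peroxisomal thioesterases that free acyl groups from CoA, and their neighbouring, similar sequences may share signal. Acot3 had effects of 1.5, 3.33, 0.47 and 1.04 and a difference of -1.66 ± 0.35, and Acot4 of 0.92, 2.15, 0.41 and 0.48 and -1.09 ± 0.21. Pex11a, which divides peroxisomes, had an early effect of 1.18 and a late effect of 0.44 (-0.74 ± 0.17). With the Actb covariate Acot3 was not called and the 5 became 2. They became 3 without replicate 1 of corn oil 2 h, DEHP 2 h or corn oil 24 h, replicate 2 of DEHP 8 h, or replicate 3 of either 72 h group.

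The promoters of 3 of these early genes are shown because they hold letters like the PPARα element AGGTCANAGGTCA, allowing up to 2 mismatches on either strand. The windows run from 250 bases before to 50 after the start in RefSeq (GRCm38.p6), and 14453 of the 18194 genes had at least 1. Such a match was held by 3.97% of these genes, by 3.57% of the genes higher late, by 8.72% of those lower late (13 of 149) and by 10.2% of those lower late and called higher early (9 of 88). The match is in capitals, with up to 40 bases each side and only bases before the start. Plin2 lies at chr4:86670232-86670309 (minus strand), Creb3l3 at chr10:81092748-81092840 (minus strand) and Acot4 at chr12:84038326-84038378 (plus strand), and the matches begin 225, 209 and 13 bases before the start.
Plin2: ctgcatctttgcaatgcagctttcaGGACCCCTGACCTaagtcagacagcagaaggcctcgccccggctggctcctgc
Creb3l3: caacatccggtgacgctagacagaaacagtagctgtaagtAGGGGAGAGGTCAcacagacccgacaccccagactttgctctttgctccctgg
Acot4: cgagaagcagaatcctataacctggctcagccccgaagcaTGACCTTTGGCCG
Plin2 and Acot4 hold the match in the reverse orientation, and Creb3l3, a transcription factor of the fasting liver with effects of 0.53, 0.42, 0.09 and -0.04, holds it forward. Pdk4, Acot3, Plin4, Plin5, Pxmp4, Gadd45b and St3gal5, which were also called higher early, had a window but no such match. Other genes called lower late held one (Clock, Cyp3a25, Itih4, Saa1, Saa2 and Serpina12), with 1 mismatch in Clock and Cyp3a25. A match is no evidence of binding.

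Against these, part of mitochondrial oxidation was called higher late, in a list that was already raised early. Of 21 measured, 5 were called higher late (Eci1, Decr1, Acadl, Hadha and Acaa2) and 2 lower late (Pdk4 and Slc22a5), and the list median was 0.27. The shares over all genes were 0.747% and 0.989%. In the early effect alone 10 of the 21 were called higher and in the late effect 16, with none lower (medians 0.29 and 0.37). Of all 18194 genes, 273 and 298 were called higher in those effects. Eci1, the isomerase for unsaturated fatty acids, read 12.10, 12.50 and 12.43 in DEHP livers at 24 h and 12.49, 12.28 and 12.22 at 72 h, with corn oil livers at 11.26, 11.42 and 11.01, and 10.67, 11.35 and 11.55. At 2 h DEHP livers read 11.25, 11.39 and 11.18 against 11.13, 11.30 and 11.12, and at 8 h 11.99, 11.73 and 11.90 against 11.21, 11.64 and 11.56. The groups overlapped at 2 h and were apart from 8 h on, and the difference was 0.88 ± 0.17 (adjusted p = 0.0068). Ech1, the isomerase found in peroxisomes and mitochondria, followed it with effects of 0.27, 0.28, 0.94 and 1.17 (0.78 ± 0.15). The long-chain dehydrogenase Acadl (0.47 ± 0.11), the trifunctional protein subunit Hadha (0.45 ± 0.11) and the thiolase Acaa2 (0.38 ± 0.09) changed less. The 5 became 2 without replicate 1 of DEHP 2 h, replicate 2 of DEHP 24 h or both arrays that stand apart, and with the Actb covariate. They became 3 without replicate 1 of corn oil 2 h or DEHP 72 h, or replicate 2 of either 8 h group, and a second probe set of Decr1 read -0.01 against 0.65.

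Several strongly induced PPARα targets stayed induced. Ehhadh, the peroxisomal bifunctional enzyme, had an early effect of 2.36 and a late effect of 2.82, a difference of 0.45 ± 0.21 that was not called (adjusted p = 0.33). The thioesterase gene Acot1 had 3.34 and 3.54, a difference of 0.20 ± 0.43. Cyp4a14, a fatty acid omega-hydroxylase, had 4.18 and 5.28 (1.10 ± 0.40, adjusted p = 0.18), and Vnn1, a pantetheinase, 2.17 and 3.24 (1.07 ± 0.30, adjusted p = 0.07). Of 10 omega-hydroxylation genes only Cyp4a31 was called, at 1.03 ± 0.20 from 1.83 early and 2.86 late, and its second probe set read 0.09. Members of this family are alike in sequence, so signal may be shared. The carnitine transferase Cpt1a read -0.15 ± 0.12 and was not called.

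**Figure D4:**
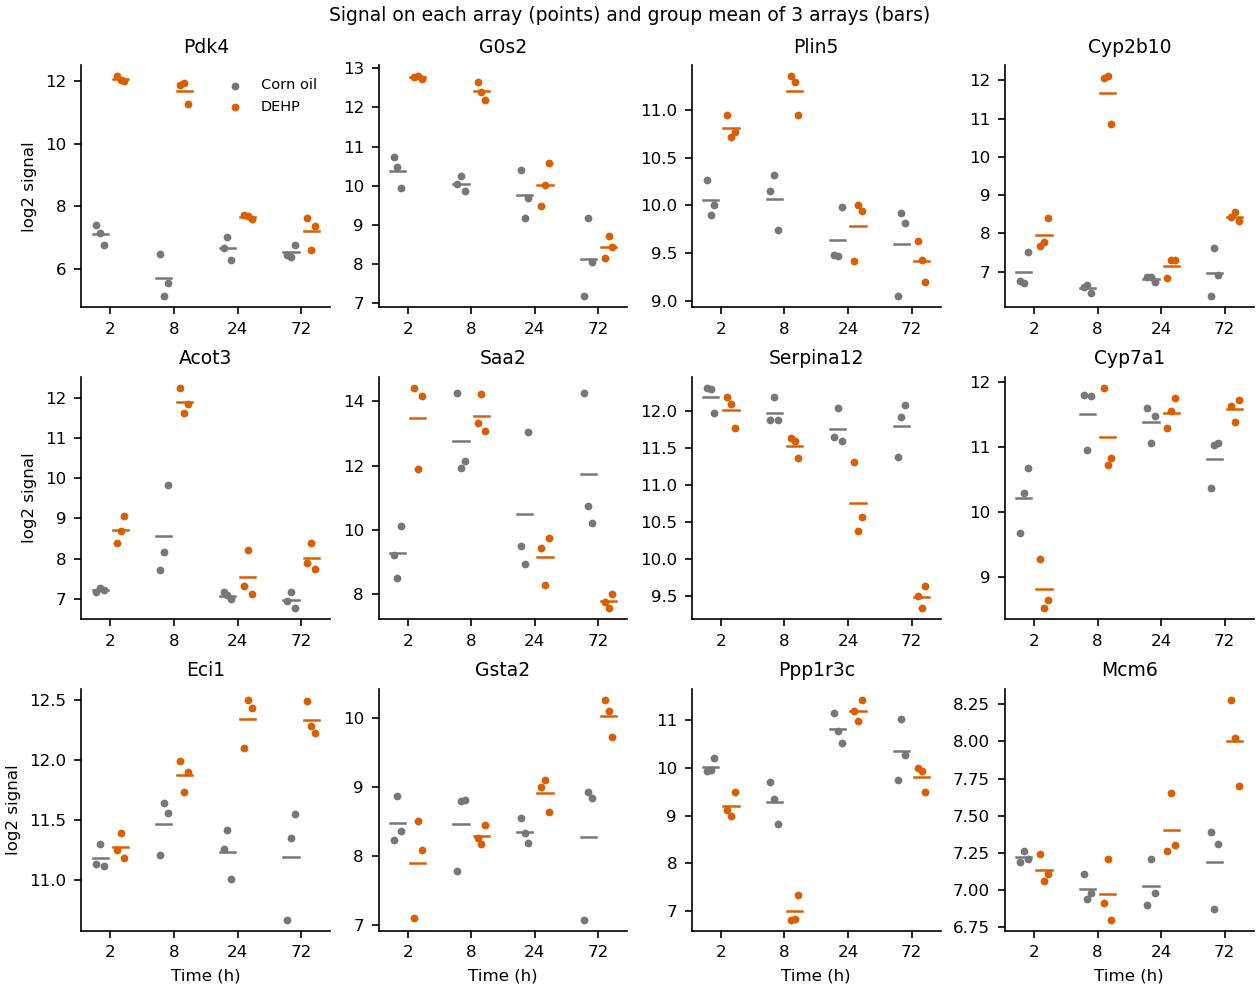
log2 signal on each array (points) and mean of 3 arrays (bars) for 12 genes, in corn oil (grey) and DEHP (orange) livers at 2, 8, 24 and 72 h; the vertical scale differs between panels. Pdk4 and G0s2 are highest in DEHP livers at 2 and 8 h, with Pdk4 still above corn oil at 24 h, Eci1 is above corn oil from 8 h on, and Serpina12 is lowest in DEHP livers at 72 h (9.33 to 9.63).

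Cyp2b10, the marker enzyme of CAR, had the sharpest single time. DEHP livers read 7.67, 7.78 and 8.39 at 2 h, 12.07, 12.11 and 10.86 at 8 h, 6.82, 7.31 and 7.31 at 24 h, and 8.42, 8.55 and 8.32 at 72 h. Corn oil livers lay between 6.35 and 7.62 on all 12 arrays. The 8 h DEHP arrays were above all others, and the 72 h DEHP arrays were above every corn oil array. The late minus early value was -2.15 ± 0.29 (adjusted p = 3.2e-04), but the effect at 72 h (1.47) exceeded that at 2 h (0.97), so the effects of the pools overlapped, and with 2 h alone as the early time the call was lost.

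Gadd45b, a stress and growth gene that CAR ligands induce, was raised at both early times (2.33 and 2.29) and not late (0.16 and 0.09), a difference of -2.19 ± 0.32. Its other probe sets had values down to -2.95 and up to -0.48. Of 23 genes of CAR and PXR drug metabolism, 3 were called lower late (Gadd45b, Cyp2b10 and Cyp3a25) and 1 higher late (Gsta2), and the median was -0.07. Cyp3a25 fell by 0.42 ± 0.09. Cyp3a11, a marker of PXR, read 0.08 ± 0.09.

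Cdkn1a and Jun were called higher early, with late effects below 0 that were not called. Cdkn1a, the p21 inhibitor of cyclin-dependent kinases, read 11.59, 11.09 and 11.26 in DEHP livers at 2 h against 9.82, 9.56 and 9.14, and 9, 8.22 and 8.04 at 72 h against 8.93, 9.54 and 9.22. The groups were apart at 2 h and overlapped at 72 h, and the difference was -1.38 ± 0.21 (adjusted p = 9.2e-04). It was the only one of 19 p53 targets called. Jun, a transcription factor of the early growth response, read -1.41 ± 0.35, was the only one of 24 immediate-early genes called, and lost the call without any of 15 of the 24 arrays in turn. Its signal was 9.85 on corn oil 72 h replicate 1 against 8.13 and 8.28 on the others of that group, and without that array the difference was -1.13 and still called (adjusted p = 0.037). The call of Jun was lost with the Actb covariate and without both arrays that stand apart. Without those arrays 2 other immediate-early genes were called higher late. Myc read -0.75 ± 0.41 and was not called. Rab30, a Golgi GTPase, had effects of 2.00, 2.01, -0.21 and 0.10 (-2.06 ± 0.26). St3gal5, the synthase of the ganglioside GM3, and Rnf24, a ring-finger protein, had differences of -1.52 ± 0.18 and -1.29 ± 0.15, from early effects of 1.3 and 1.14. Second probe sets gave smaller differences, -0.51 for Cdkn1a, -0.97 for Jun, -1.09 for Rab30, -1.27 for St3gal5 and -0.38 for Rnf24.

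Fgf21 and Insig2 were also called higher early. Fgf21, the fasting hormone of the liver, read 9.38, 8.38 and 8.66 in DEHP livers at 2 h against 7.95, 7.97 and 7.66, and 7.53, 7.50 and 7.37 at 72 h against 7.69, 8.51 and 8.20. It was above the controls at 2 h and below them at 72 h, a difference of -0.94 ± 0.21 (adjusted p = 0.022) that was not called with the Actb covariate. Insig2, which holds SREBP in the endoplasmic reticulum, had effects of 0.59, 1.01, 0.05 and -0.49 (-1.02 ± 0.18), and was the only one of 26 genes of fatty acid and triglyceride synthesis called. The list median was 0.16, and Acly, which makes cytosolic acetyl-CoA, read 0.94 ± 0.34 with an adjusted p of 0.18. None of 20 cholesterol synthesis genes was called; 17 of the 20 values were above 0 and the median was 0.24.

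Other genes fell mainly after the first day. Serpina12, which encodes the adipokine vaspin, read 12.19, 12.09 and 11.77 in DEHP livers at 2 h, 11.63, 11.59 and 11.36 at 8 h, 11.31, 10.37 and 10.57 at 24 h and 9.49, 9.33 and 9.63 at 72 h. Corn oil livers lay between 11.38 and 12.31 on all 12 arrays. DEHP livers were below their controls at 8, 24 and 72 h without overlap, and the difference was -1.35 ± 0.20 (adjusted p = 6.7e-04), with no call from its second probe set. Hmox1, the haem oxygenase of the oxidative stress response, had 0.30 early and -0.39 late (-0.69 ± 0.15), a call lost with the Actb covariate. Apoa4, a lipoprotein component, had 0.08 and -0.81, a difference of -0.90 ± 0.24 that was not called (adjusted p = 0.059).

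Heat shock genes were called mostly downward. Of 19 measured, 6 were called lower late (Hspa1a, Hsph1, Bag3, Dnajb4, Dnaja1 and Hspa8) and 1 higher late (Hspe1, the mitochondrial co-chaperone, 0.44 ± 0.10), with a median of -0.42. The shares over all genes were 0.989% and 0.747%. Hspa1a read 5.79, 5.76 and 5.52 in DEHP livers at 72 h against 7.97, 7.75 and 8.05 in corn oil livers, and its highest value on all 18 arrays of the earlier times was 7.03. The 72 h corn oil arrays were thus the high ones, and the difference was -1.47 ± 0.32 (adjusted p = 0.017). Bag3, an HSP70 partner, read -0.79 ± 0.16, with 0.70 of change in corn oil livers and -0.09 in DEHP livers. Dnajb4 had 0.54 of change in corn oil livers and -0.11 in DEHP livers, and another of its probe sets read 0.15. Hsph1 had effects of -0.54, 0.56, -0.10 and -1.54, so that the effects of its pools overlapped. The 6 became 3 without any of 3 single arrays (replicate 1 of corn oil 2 h, replicate 1 of DEHP 8 h and replicate 2 of corn oil 8 h), and 3 with the Actb covariate. The call of Hspe1 was lost with that covariate and without both arrays that stand apart. Endoplasmic reticulum folding and stress genes had a median of -0.26, and among 26 only Fgf21, which that list also holds, was called. Their mean signal was 10.99 on DEHP 2 h replicate 1 against 10.58 and 10.54 on the others of that group, an array that was also high in exocrine pancreas markers (10.21 against 6.82 and 6.9). The part of that array in the list median was not tested.

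Acute phase genes had large values and large errors. Saa2, a serum amyloid A gene, read 14.41, 11.89 and 14.15 in DEHP livers at 2 h against 9.22, 8.5 and 10.11, and 7.75, 7.57 and 8.01 at 72 h against 14.26, 10.73 and 10.20. At 8 and 24 h the groups overlapped, and single corn oil arrays were high at 8 h (replicate 1, 14.25), 24 h (replicate 3, 13.04) and 72 h (replicate 1, 14.26). The difference was -5.13 ± 0.95 (adjusted p = 0.006) and that of Saa1 -3.78 ± 0.60; the genes are near copies and may share signal. Lcn2, an iron-binding acute phase protein, read -5.55 ± 1.49 and was not called (adjusted p = 0.058). Of 26 acute phase genes 25 had values below 0, with a median of -0.59, and 3 were called lower late, against 0.989% of all genes. The third was Itih4 (-0.63 ± 0.16), which lost the call without any of 17 arrays in turn. The count was 7 without DEHP 2 h replicate 2, 5 without replicate 1 of corn oil 8 h or replicate 3 of corn oil 72 h, and 2 without both arrays that stand apart.

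Complement and coagulation genes were lowered in the late pool. Of 31 measured, 28 had values below 0 with a median of -0.17, and 4 were called lower late, against 0.989% of all genes. The 4 were C8a, C8b and C9 of the membrane attack complex, and Cfb, a factor of the alternative pathway. Their values lay between -0.53 and -0.46. In the late effect alone 22 of the 31 were called lower and in the early effect 8, so the list was below corn oil in both pools (medians -0.12 early and -0.33 late). Of all 18194 genes, 452 were called lower in the late effect and 423 in the early effect. C8a, C8b and C9 each lost the call without any of several single arrays, and the 4 became 1 without replicate 1 of corn oil 2 h or replicate 2 of DEHP 8 h or DEHP 72 h. They became 2 without replicate 3 of corn oil 2 h, replicate 1 of DEHP 2 h or corn oil 24 h, or replicate 2 of DEHP 24 h.

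Markers of macrophages moved in the same direction without a call. All 13 had values below 0, from -0.54 (Cd5l) to -0.11 (Marco), with a median of -0.34. Their mean signal was 8.27 to 8.59 in DEHP livers at 72 h and 8.80 to 9.27 in the matched corn oil livers, and the ranges of the 2 arms overlapped at 2, 8 and 24 h. At 8 h the DEHP livers read 8.67 to 8.76. Corn oil replicate 2, the array with the highest Actb 3' minus 5' signal, read 8.13, and the others of its group 9.07 and 9. The 8 h overlap thus rested on that array. Its low value also raised the 8 h effect of the list mean, and so lowered the late minus early value of that mean. The list median without that array was not tested. At 24 h the DEHP livers read 8.34 to 8.87 and the corn oil livers 8.54 to 8.69. The part of these markers in the acute phase and complement results was not tested. No marker of neutrophils, lymphocytes, red blood cells, adipocytes, endothelium, exocrine pancreas, bile duct or stellate cells was called, and their list medians ran from -0.08 to 0.14. Single arrays were high in the mean of exocrine pancreas markers: besides DEHP 2 h replicate 1, it was 8.12 and 8.95 on replicates 1 and 2 of corn oil 2 h, 9.09 on replicate 1 of corn oil 72 h and 8.69 on replicate 1 of DEHP 72 h, and 6.64 to 7.55 on all other arrays. Their part in the results was not tested.

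**Figure D5:**
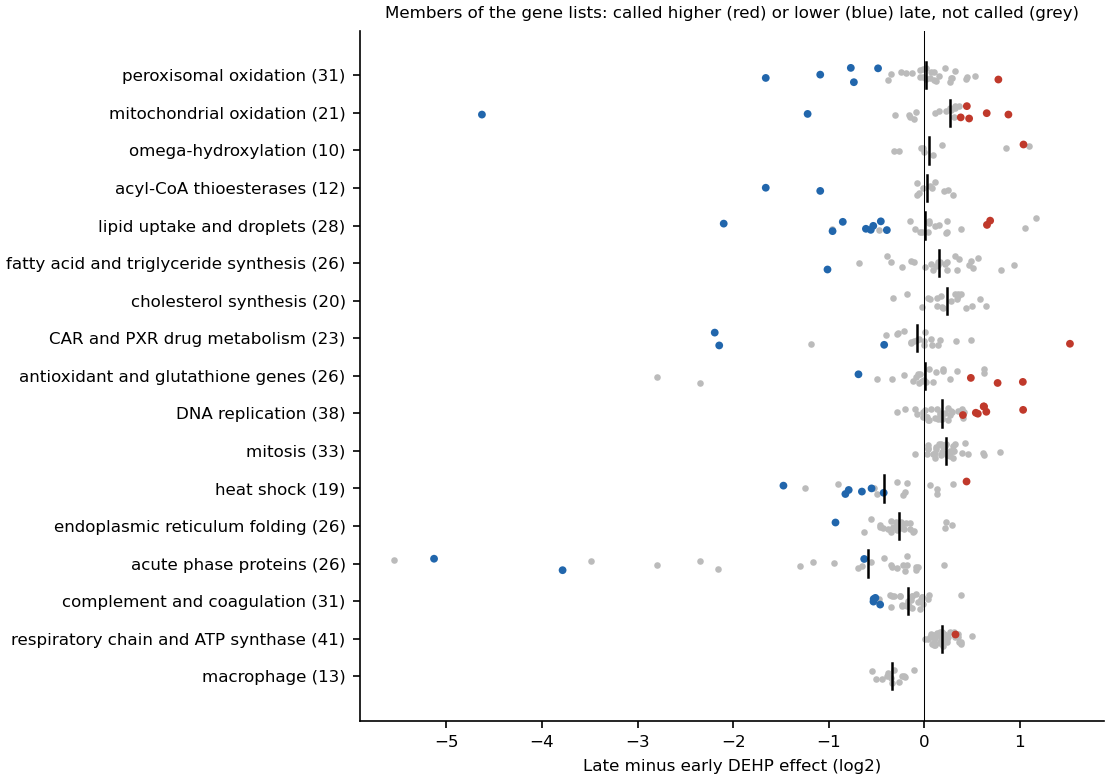
Late minus early DEHP effect (log2) of each measured member of 17 lists, with the number of members after each name and the black bar at the list median. Red and blue points are called genes and grey points are not; lipid droplets hold 8 blue points, DNA replication 7 red, heat shock 6 blue, and macrophage markers none.

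Ppp1r3c, Cyp7a1, Hsd3b5, Etnppl, Ass1 and Cited2 were among the 60 genes lowered early with no late call. Ppp1r3c, which targets protein phosphatase 1 to glycogen, read 9.13, 9 and 9.5 in DEHP livers at 2 h against 9.93, 9.96 and 10.20, and 6.82, 6.84 and 7.35 at 8 h against 9.71, 9.35 and 8.83. At 24 h DEHP livers read 11.19, 10.99 and 11.43 against 11.15, 10.78 and 10.53, and at 72 h 9.99, 9.93 and 9.49 against 9.74, 11.02 and 10.28. The groups were apart early and overlapped late, a difference of 1.47 ± 0.25 (adjusted p = 0.0031). Its second probe set gave a smaller value, 0.39.

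Cyp7a1, which sets the rate of bile acid synthesis from cholesterol, read 9.29, 8.53 and 8.66 in DEHP livers at 2 h against 9.69, 10.30 and 10.68, and 11.64, 11.39 and 11.72 at 72 h against 10.38, 11.03 and 11.06. It was below the controls at 2 h, above them at 72 h and overlapped at 8 and 24 h. The difference was 1.33 ± 0.29 (adjusted p = 0.018), and Cyp7a1 was the only one of 20 bile acid genes called; its second probe set gave 0.95 and no call. Hsd3b5, a male-biased steroid enzyme, had effects of -0.46, -1.96, -0.21 and -0.23 (0.99 ± 0.17). Etnppl, a phospholyase of phosphoethanolamine, read 1.12 ± 0.27, and Ass1, the argininosuccinate synthase of the urea cycle, 0.78 ± 0.16; they were the called genes of 34 in amino acid catabolism, with a median of 0.11, and Etnppl lost its call without any of 9 arrays in turn. Cited2, a transcriptional coregulator, had -0.82 early and 0.27 late (1.09 ± 0.23). Bmf, which promotes apoptosis, was called lower early and higher late, with -0.70 and 0.37 (1.06 ± 0.14), but its second probe set read -0.17.

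Genes higher late also included several glutathione transferases and the retinol dehydrogenase Rdh16. Gsta2, an alpha-class glutathione transferase, read 9, 9.11 and 8.64 in DEHP livers at 24 h against 8.55, 8.34 and 8.19, and 10.27, 10.10 and 9.73 at 72 h against 7.08, 8.93 and 8.84. The early groups overlapped, the late groups did not, and the difference was 1.53 ± 0.37 (adjusted p = 0.035), a call lost without any of 11 arrays in turn. Gstt2 had effects of -0.03, 0.69, 1.28 and 1.45 (1.03 ± 0.21), and Gstm4 and Gstt1 were also called (0.77 ± 0.18 and 0.49 ± 0.13), the latter from -0.27 early and 0.22 late, neither of them called. These were 3 of 26 antioxidant and glutathione genes, against 0.747% of all genes, with a median of 0.01, and 1 of 26 was called with the Actb covariate. The count was also 1 without replicate 2 of corn oil 2 h, either 8 h group, DEHP 24 h or DEHP 72 h, replicate 1 of DEHP 2 h, corn oil 24 h or DEHP 72 h, or replicate 3 of DEHP 2 h. Mgst3, a microsomal glutathione transferase, read 0.96 ± 0.22 from -0.46 early and 0.50 late, neither called, with 0.05 from another probe set. Rdh16 had -0.21 early and 1.09 late (1.3 ± 0.29), a call lost without both arrays that stand apart.

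Part of the DNA replication list was called higher late, and none of it was called lower. Of 38 measured, 7 were called higher late (Mcm10, Mcm6, Tk1, Rfc3, Cdt1, Rfc4 and Mcm4), against 0.747% of all genes, 32 had values above 0 and the median was 0.19. Mcm6, a subunit of the replicative helicase, read 7.26, 7.65 and 7.30 in DEHP livers at 24 h against 6.90, 7.21 and 6.98, and 8.28, 8.02 and 7.70 at 72 h against 7.39, 6.87 and 7.31. At 2 h DEHP livers read 7.24, 7.06 and 7.11 against 7.19, 7.26 and 7.21, and at 8 h 6.91, 7.21 and 6.80 against 7.11, 6.94 and 6.98. The early groups overlapped and the late groups did not, a difference of 0.65 ± 0.15 (adjusted p = 0.02), with 0.04 from the lowest of its 3 probe sets and no call from their mean.

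Tk1, the thymidine kinase of S phase, had effects of -0.48, -0.10, 0.20 and 0.46 (0.63 ± 0.11). Cdt1, which licenses origins, and the clamp loaders Rfc3 and Rfc4 had values of 0.56 ± 0.11, 0.62 ± 0.16 and 0.54 ± 0.13, and Rfc3 lost its call without any of 16 arrays in turn. Mcm10 (1.03 ± 0.21) differed from these in being lowered early (-0.80) with a small late effect (0.24), and another of its probe sets read -0.04. Its late minus early change was -0.67 in corn oil livers and 0.36 in DEHP livers. Spc24, a kinetochore protein outside the list, read 0.92 ± 0.16. The 7 became 4 without both arrays that stand apart and 4 with the Actb covariate.

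The Mcm6 promoter is shown because letters of the S-phase factor E2F (TTTCCCGC, TTTGGCGC or TTTCGCGC, either strand) were held by 15 of the 30 genes of the DNA replication list that had a window (50%) against 3.25% of all genes, by 5.36% of the genes higher late and by 7.38% of those lower late (11 of 149). The stretch is chr1:128359706-128359855 (minus strand, GRCm38.p6), the 3 matches are in capitals with the upstream pair overlapping, and they begin 110 bases before the start.
Mcm6: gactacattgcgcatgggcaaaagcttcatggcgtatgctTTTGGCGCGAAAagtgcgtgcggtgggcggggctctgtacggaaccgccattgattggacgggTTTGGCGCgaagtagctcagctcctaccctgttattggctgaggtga
The list was chosen for its function, and its share of matches is a description of those promoters, not of the response.

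None of 33 mitosis genes was called, although 32 had values above 0 and the median was 0.22. Birc5, the survivin of the dividing cell, read 0.79 ± 0.35, with effects of -0.21, 0.01, 0.09 and 1.3, and Mki67, a proliferation marker, read 0.27 ± 0.22. DEHP 72 h replicate 1 was high in both, with Birc5 at 7.74 against 5.68 and 5.47 and Mki67 at 7.04 against 5.75 and 5.66, and in the list mean (7.01 against 6.4 and 6.32). Without that array Birc5 read 0.43 and Mki67 0.05. The CHR letters TTTGAA, found in promoters of mitotic genes, were held by 75% of the genes of this list that had a window (21 of 28) against 15.7% of all genes. Respiratory chain and ATP synthase genes showed small values on one side, with all 41 above 0 and a median of 0.19, but only Cox7a2 was called (0.32 ± 0.08), and that call was lost without any of 14 arrays in turn.

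Clock genes were divided. Of 20 core clock genes, Clock was called lower late (-0.73 ± 0.15) and Cry2, a repressor of the clock, higher (0.35 ± 0.08), with a median of 0.02, and Cry2 lost its call without any of 7 arrays in turn. Dbp, an output activator with a strong daily rhythm, read 1.84 ± 0.57 and was not called (adjusted p = 0.11). Its corn oil livers ranged from 11.64 to 12.08 at 8 h and from 6.78 to 9.67 at the other times, and the effect of DEHP was -2.28 at 2 h and 1.88 at 72 h. Of 21 clock output genes 3 were called higher late (Ppp1r3c, Cyp7a1 and Wee1) and 2 lower (Slc45a3 and Hspa8). The 2 became 1 without replicate 1 of corn oil 2 h or DEHP 8 h, or replicate 2 of corn oil 8 h, DEHP 24 h or DEHP 72 h. Wee1, a cell cycle kinase under clock control, read 0.72 ± 0.17, with -0.04 from its second probe set, and lost its call without any of 12 arrays in turn. Its late minus early change was 0.055 in DEHP livers and -0.66 in corn oil livers. The times differ in how long after gavage and possibly in hour of day, and these cannot be told apart.

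The pools were not uniform. The effect at 8 h differed from that at 2 h in 76 genes (0.418%), 26 higher and 50 lower, and the effect at 72 h from that at 24 h in 4 (0.022%), all lower. Among the 316 called genes the effect was larger at 72 than at 24 h in 255 (80.7%, against 61.3% of all genes). With 24 h alone as the late time 27 genes were called, with 72 h alone 474, and with 2 h or 8 h alone as the early time 233 or 249. Quantile normalization called 570 genes, 339 higher and 231 lower late, so that 59.5% were higher against 43% in the deposited scale, and 311 of the 316 were among them. The count higher late was 90 without replicate 2 of corn oil 8 h and 78 without replicate 2 of DEHP 24 h, and 185 of the 316 genes were called in every fit that left out a single array.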

How the data were processed

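Liver total RNA was biotin-labelled and hybridised to 24 Affymetrix arrays of 45101 probe sets, per the labels' protocols. The authors deposited log2 signals from RMA, per the submitters' processing notes; its version is not given in the sources used here, and detection calls were not used. Probe sets were named through the series' platform annotation: 34958 carried a single symbol and 932 several, and 9211 were unnamed here. The probe set of highest mean stood for each of 18194 genes; list members without a named probe set were not analysed here.

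R 4.3.3 and limma 3.58.1 fitted the 8 group means over 24 arrays (16 residual and 6.21 prior degrees of freedom), with empirical Bayes variances and Benjamini-Hochberg adjustment over 18194 genes; called means an adjusted p under 0.05, two-sided. Values are log2 differences ± the SE of the fit. Arrays have no read depth; their number limits precision. The fit was tested on simulated data. The members, 44 gene lists and rules were chosen with earlier results of these data known. Named genes were the 14 largest called differences of each sign whose late effects lay on the same side of both early effects, up to 4 called members of a list or else its largest, and fixed genes; Plin2, Creb3l3 and the other list members named, Acot1 and Acly were chosen after their values were seen. Alternatives changed the replicate block, filter, probe sets, variance model, array weights, scaling, thresholds, pools and arrays. RefSeq promoters were searched for motifs on both strands.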

Additional observations from a re-analysis of the deposited data

Results flagged for a closer look

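DEHP effects that differed between times, by a test of the difference itself, were the 316 genes of the late minus early comparison, the 76 genes whose effect differed between 8 and 2 h, and the 4 whose effect differed between 72 and 24 h. Within the early pool, Cyp2b10 had an effect 4.16 higher at 8 than at 2 h (log2), Hsd3b5 had a value of -1.49 and Cdkn1a -1.33. Within the late pool the 4 genes were Sgk1, a kinase of salt and stress signalling (72 h minus 24 h effect of -1.81), Chka, a choline kinase (-1.78), Avpr1a, the vasopressin receptor of hepatocytes (-1.02), and Bpgm, an enzyme of glycolytic intermediates (-0.73). Of these, Sgk1, Avpr1a and Bpgm had late minus early values of -0.19, -0.03 and -0.21 that were not called, and Chka one of -0.90 that was. Outside the genes, 24 of 10092 probe sets that carry no single gene name were called for the late minus early effect, 5 higher and 19 lower late.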

How the results depend on the processing

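The replicate numbers did not pair the arrays: over 12 pairs of the same replicate number within a time the correlation ran from -0.351 to 0.144, with 1 over 0.1. With the replicate number as a fixed block 334 genes were called, and as a random block within each time 240 (block correlation -0.079). These 2 blocks moved only the counts within the pools by over 1.5 times. The 72 h minus 24 h count became 2 with either, and the 8 h minus 2 h count 49 with the random block. In every group replicate 1 carries a lower number in its title than the other replicates. With replicate 1 against the others as a block 357 genes were called, 156 higher and 201 lower late.
The late minus early counts called, higher and lower late were 106, 38 and 68 at an adjusted p under 0.01, 167, 65 and 102 at 1.5-fold or more, 173, 67 and 106 with the Actb covariate, and 27, 7 and 20 with 24 h alone as late. Quantile normalization gave 570, with 339 higher. The count higher was 79 without both arrays that stand apart and 72 with 2 h alone as early, and the count lower was 330 with 72 h alone as late and 113 with 8 h alone as early.
The early and late effects called 317 and 223 genes at an adjusted p under 0.01 and 137 and 110 at 1.5-fold; the early effect called 437 with the Actb covariate and the late effect 1507 with array weights.
Within the early pool the 76 became 140 with array weights, 184 without the corn oil and the DEHP array at 8 h that are both numbered 14, 40 with the Actb covariate and 20 at an adjusted p under 0.01. Within the late pool the 4 became 140 with array weights, 17 without both arrays that stand apart, 1 with the mean of all probe sets, and 2 with quantile normalization, without the arrays numbered 14 or at an adjusted p under 0.01.
Leaving out each array in turn, the counts ran from 218 to 435 (called), 78 to 193 (higher) and 122 to 263 (lower), 481 to 795 early and 311 to 1216 late, 28 to 181 within the early pool and 2 to 18 within the late pool. The extremes of the last 3 were without replicate 3 (311) and replicate 2 (1216) of corn oil 24 h, replicate 1 (28) and replicate 2 (181) of DEHP 8 h, and replicate 1 of corn oil 72 h (18).
A second probe set turned the sign of Bmf (-0.17), Wee1 (-0.036) and Decr1 (-0.006). Of 189 called genes with more than 1 probe set, the second had the same sign in 174. The cause of these changes was not tested, apart from fewer genes or arrays where the setting removes them. No detection calls were used, so how far dim genes stand above background is unknown.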
